A study of Mus musculus with 57 samples.

Results

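Axon guidance ligands and receptors are the cell-surface and secreted proteins by which growing axons and migrating cells are attracted or repelled. The transcripts described here were chosen by a rule on gene symbols that uses no measured value, though with earlier results of these data known. They comprise every semaphorin (Sema), plexin (Plxn), ephrin (Efna, Efnb) and Eph receptor (Epha, Ephb) symbol of the count table, together with the neuropilins Nrp1 and Nrp2, the netrins Ntn1 and Ntn4, the netrin receptors Dcc, Neo1 and Unc5a to Unc5d, and Slit1 to Slit3 with Robo1 to Robo3. The rule found 68 of the 21118 genes measured, of which 66 are protein-coding (33 ligands and 33 receptors) and 2 are antisense RNAs of the Plxna4 locus, Plxna4os1 and Plxna4os2. All 68 members were kept in every count below, with no filter on low values.

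The study measured ribosome-bound RNA from the whole cerebral cortex of male and female Aldh1l1-L10-GFP mice on a C57BL/6 background. A ribosomal protein carrying green fluorescent protein is made under the control of Aldh1l1, an astroglial gene, and an antibody to the fluorescent protein pulls down the tagged ribosomes with their mRNA (translating ribosome affinity purification, TRAP). The 53 libraries fall into 12 groups of sex and age: P1 (postnatal day 1, 4 female and 4 male), P4 (4 and 4), P7 (8 and 4), P14 (5 and 5), P35 (3 and 3) and adult (4 and 5), all of them carrying the transgene, untreated as far as the labels say. The series is described as 53 independent samples, and whether a sample pooled several mice is not given in the sources used here. Total counts ran from 14768178 to 48541139 per library, with a median of 24033399.

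Background on the families helps in reading the values. Semaphorins bind plexins, and the secreted class 3 members mostly also need a neuropilin; the usual outcome in a growth cone is collapse or turning away. Ephrins are themselves tethered to the membrane, the A type by a lipid anchor and the B type by a transmembrane segment, so that signalling through Eph receptors needs contact between cells and can run in both directions. Netrins attract through Dcc and Neo1 and repel through the Unc5 receptors, and Slits repel through Robo1 and Robo2. In the cortex these proteins order axon tracts around birth, and later several of them act at synapses and at contacts between neurons and glia.

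Properties of the libraries bear on every result. Beside astroglial RNA the pull-down held RNA of other cells: the 25 neuronal markers summed to between 2577 and 18572 CPM (counts per 1000000, with TMM-scaled library sizes) in the libraries, and the 20 mature astrocyte markers to between 1037 and 32572 CPM. The library titles carry a number whose first digit (1, 2, 3, 4 or 6) recurs across ages and sexes, here called the replicate set, while 4 P7 libraries sequenced only in the second run carry the letter S. What the number stands for is not given in the sources used here. In 11 libraries there was reason for doubt: sex-linked transcripts went against the labelled sex in 6, the description named the other sex in 5, and at least 10 counts were found in fewer than 15000 genes in 3, among them the library of P1 female 4 (10085 genes). In bulk RNA, fewer cells of a type and less RNA per cell cannot be told apart.

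The sequences immediately upstream of 5 members are shown because these members separated P1 from adult libraries without overlap, and 4 of them fell together. A sixth, Efnb3, has no entry in the table of promoters. Each line gives the 250 bases before the RefSeq transcription start (GRCm38.p6), read 5′ to 3′ on the gene's strand, with every CG dinucleotide in capitals. Efnb1 lies at chrX:99135811-99136060 (plus strand), Efnb2 at chr8:8661243-8661492 (minus), Efna4 at chr3:89338029-89338278 (minus), Sema6c at chr3:95160170-95160419 (plus, the first of its 2 listed starts) and Plxnb3 at chrX:73756853-73757102 (plus).
Efnb1: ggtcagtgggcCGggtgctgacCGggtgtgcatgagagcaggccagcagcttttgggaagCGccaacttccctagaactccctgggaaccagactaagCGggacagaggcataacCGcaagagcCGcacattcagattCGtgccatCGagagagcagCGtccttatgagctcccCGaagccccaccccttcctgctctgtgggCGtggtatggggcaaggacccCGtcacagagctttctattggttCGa
Efnb2: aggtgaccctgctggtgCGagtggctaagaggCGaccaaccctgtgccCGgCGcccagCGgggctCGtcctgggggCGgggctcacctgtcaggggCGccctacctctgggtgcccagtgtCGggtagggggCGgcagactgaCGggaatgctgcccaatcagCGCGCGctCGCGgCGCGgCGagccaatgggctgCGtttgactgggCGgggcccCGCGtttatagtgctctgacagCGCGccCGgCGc
Efna4: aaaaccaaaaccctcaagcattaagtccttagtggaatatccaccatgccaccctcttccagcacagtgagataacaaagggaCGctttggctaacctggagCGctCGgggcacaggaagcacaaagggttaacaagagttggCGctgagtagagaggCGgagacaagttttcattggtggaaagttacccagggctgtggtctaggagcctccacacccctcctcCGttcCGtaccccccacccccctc
Sema6c: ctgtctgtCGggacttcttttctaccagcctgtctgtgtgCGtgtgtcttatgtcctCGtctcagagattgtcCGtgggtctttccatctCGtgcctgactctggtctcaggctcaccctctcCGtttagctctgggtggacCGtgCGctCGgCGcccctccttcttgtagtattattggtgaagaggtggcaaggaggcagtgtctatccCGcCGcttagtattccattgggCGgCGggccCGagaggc
Plxnb3: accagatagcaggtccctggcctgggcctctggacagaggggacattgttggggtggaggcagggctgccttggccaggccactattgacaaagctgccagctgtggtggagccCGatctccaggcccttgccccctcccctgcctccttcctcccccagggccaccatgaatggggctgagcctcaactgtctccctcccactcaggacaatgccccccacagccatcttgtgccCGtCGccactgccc

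The motif counted was CG, which reads the same on both strands. The windows of Efnb1, Efnb2, Efna4 and Sema6c, all lower in adults, hold 13, 27, 7 and 15 CG pairs, and that of Plxnb3, higher in adults, holds 3. RefSeq lists 72 such windows for 56 of the members, with a median of 16 CG pairs and at least 10 in 52 of them (72.2%). Over all 32851 windows the median was 6 and 37.8% held at least 10, while 92.1% held at least 1. For the members that fell from P1 to adult, the 14 windows of 12 genes had a median of 17.5 (0 to 45), and for those that rose, the 7 windows of 5 genes had a median of 3 (1 to 35). The 2 ranges overlap, and these counts are a description of the sequence only.

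Members were first ordered by their level per length, as CPM per kilobase of exon (GENCODE M21). At P1 the highest were the ephrins Efna2 (23.6 ± 8.01, SD, n = 8) and Efnb3 (22.6 ± 5.72), followed by Efnb1 (13.9 ± 6.03), Efna3 (8.44 ± 10.8), Efnb2 (7.90 ± 2.56) and Efna4 (7.46 ± 4.56). Efna2 and Efnb3 differed by less than their spread, and so did Efna3, Efnb2 and Efna4. The place of Efna3 rested on P1 female 4, the P1 library of few genes: at 84.4 CPM it stood far above the other 7, and without it the level of Efna3 was 4.69 ± 2.25 CPM per kb, below Efnb2 (7.25 ± 1.93) and Efna4 (6.01 ± 2.18). In adults Efna2 (8.13 ± 3.52, n = 9) and Efnb3 (7.32 ± 1.93) still headed the order, but the next places belonged to the receptors Ephb1 (7.20 ± 3.65) and Ephb6 (6.11 ± 2.95, an Eph receptor without kinase activity) and to Sema6b (5.16 ± 2.43). These 5 adult levels lay within one another's spread.

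Summed over a class, the ephrins gave the clearest course with age. The 8 ephrins together ran from 58.8 to 140 CPM per kb at P1 (median 84.0), from 47.7 to 71.1 at P4 (median 61.6), from 19.8 to 74.1 at P7 (median 45.5), from 26.8 to 44.5 at P14 (median 33.3), from 23.7 to 36.1 at P35 (median 33.1) and from 22.5 to 33.1 in adults (median 28.6). Every P1 library stood above every P14, P35 and adult library. The highest P1 sum was that of P1 female 4, and the other 7 reached at most 98.1. For the 13 Eph receptors the sum ran from 15.7 to 42.7 CPM per kb at P1 (median 24.1) and from 16.2 to 35.9 in adults (median 24.2), and the ranges overlapped over most of their length. For the 13 membrane-bound semaphorins the sum ran from 10.5 to 39.7 at P1 and from 16.9 to 31.5 in adults, and for the 11 plexins and neuropilins from 10.2 to 42.3 and from 10.4 to 24.6, again with broad overlap.

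**Figure D1:**
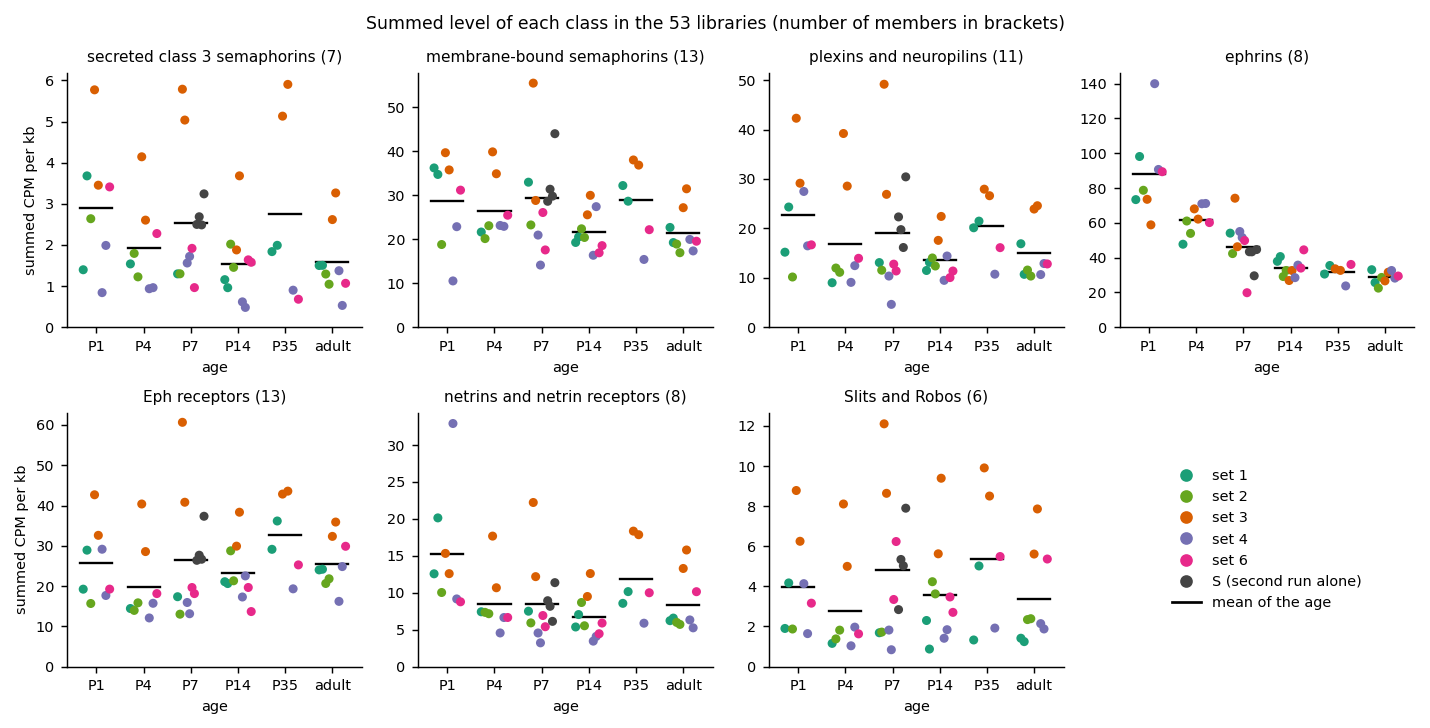
Summed level of each class of guidance genes (vertical axis, CPM per kb of exon, from 0) against age in the 53 libraries. Each point is a library, coloured by replicate set, and each bar is the mean of an age; the ephrin sum of every P1 library (58.8 to 140) lies above every adult library (22.5 to 33.1), while in most other panels the set 3 libraries stand at the top of their age.

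The longest span of the design, P1 to adult, asks which members differ between the pull-down RNA of newborn and of adult cortex. Of the 68 members, 17 fell and 5 rose (edgeR quasi-likelihood test, Benjamini-Hochberg adjusted p under 0.05 over all genes). That is 25.0% of the members against 13.4% of all genes that fell, and 7.35% against 14.6% that rose. The median log2 change of the members was -0.42, with 44 of 68 below 0, and that of all genes was 0.06. By side, 12 of 33 ligands fell and 2 rose, and 5 of 33 receptors fell and 3 rose. Leaving out the 11 doubted libraries gave 18 that fell and 4 that rose.

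**Figure D2:**
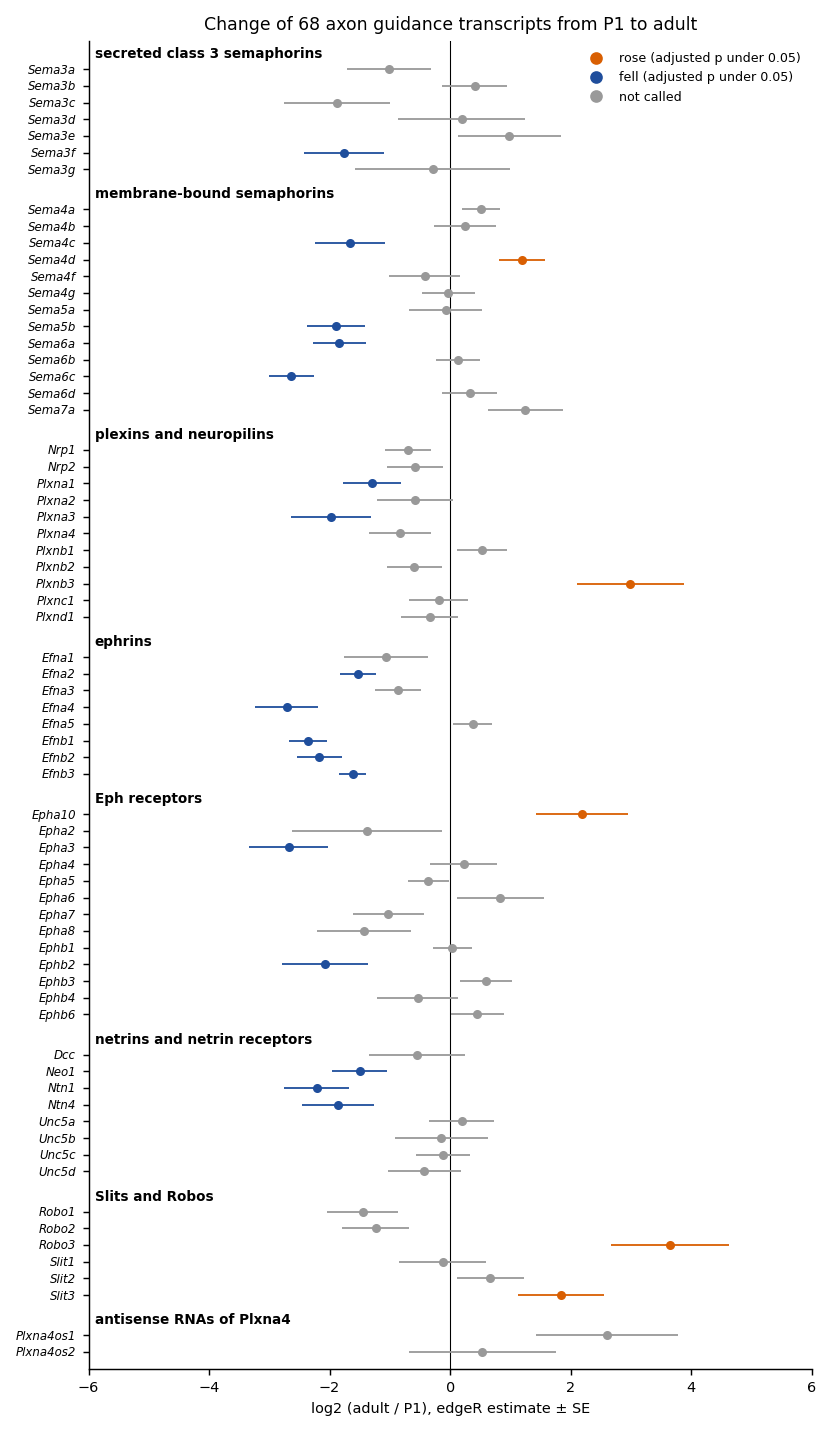
Log2 change from P1 to adult of each of the 68 members (point, edgeR estimate; line, standard error; horizontal axis in log2 units), grouped by class. Blue marks the 17 members that fell, orange the 5 that rose and grey the 46 not called; 5 of the 8 ephrins are blue.

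Ephrins, the ligands of the Eph receptors, had 5 of 8 members that fell and none that rose, with a median log2 change of -1.57. Over all genes 13.4% fell and 14.6% rose. Efnb1, at chrX:99136130-99148991, ran from 25.1 to 88.5 CPM at P1 (median 49.5) and from 6.06 to 12.8 in adults (median 10.3). The change was -2.36 ± 0.32 log2 units (SE, adjusted p = 2.22e-07). Efnb2, at chr8:8617434-8661242, ran from 28.9 to 85.2 CPM at P1 (median 52.7) and from 4.60 to 24.8 in adults (median 9.13), a change of -2.17 ± 0.37 (adjusted p = 1.78e-05). Efnb3, at chr11:69554092-69560205, ran from 45.0 to 100.2 CPM at P1 (median 67.3) and from 15.0 to 32.0 in adults (median 21.4), a change of -1.62 ± 0.22 (adjusted p = 2.85e-07). All 3 B-type ephrins were thus lower in every adult library than in any P1 library.

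Among the A-type ephrins, Efna4 (log2 change -2.71 ± 0.52, adjusted p = 0.000102) and Efna2 (-1.53 ± 0.30, adjusted p = 0.000124) also fell. Efna2 ran from 27.4 to 82.5 CPM at P1 (median 48.5) and from 4.76 to 27.4 in adults (median 20.3), so that the highest adult library just reached the lowest P1 library. Efna4 averaged 11.9 CPM at P1 and 1.82 in adults, with no overlap of the libraries. The other 3 ephrins were not called: Efna1 at -1.06 ± 0.70, Efna3 at -0.86 ± 0.38 (adjusted p = 0.0829) and Efna5 at 0.38 ± 0.33.

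Of the 13 Eph receptors 2 fell (against 13.4% of all genes), 1 rose (against 14.6%) and 10 were not called, with a median of -0.37. Epha3, a receptor of A-type ephrins, ran from 3.15 to 26.3 CPM at P1 (median 11.4) and from 0.604 to 5.63 in adults (median 0.933), a change of -2.68 ± 0.65 (adjusted p = 0.00159). Ephb2, a receptor of B-type ephrins, ran from 0.0 to 21.8 CPM at P1 (median 8.56) and from 0.769 to 4.41 in adults (median 1.33), a change of -2.08 ± 0.71 (adjusted p = 0.0243). The P1 library with no Ephb2 count was P1 female 4, so its range spans the adult one. Epha10, which lacks kinase activity, rose from between 0.0 and 4.43 CPM at P1 (median 1.06) to between 2.61 and 16.9 in adults (median 4.51), a change of 2.19 ± 0.77 (adjusted p = 0.0284) with overlapping libraries. The receptors with the highest adult levels per length, Ephb1 (0.03 ± 0.32) and Ephb6 (0.45 ± 0.44), were not called.

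Of the 13 membrane-bound semaphorins 4 fell and 1 rose (13.4% and 14.6% of all genes). Sema6c, a transmembrane ligand at chr3:95160457-95174024, ran from 12.7 to 54.1 CPM at P1 (median 31.7) and from 3.44 to 9.20 in adults (median 4.96), with no overlap. Its change was -2.63 ± 0.38 (adjusted p = 8.20e-07). Sema6a, a ligand of Plxna2 and Plxna4, ran from 0.211 to 127 CPM at P1 (median 37.4) and from 6.47 to 18.2 in adults (median 14.0), a change of -1.84 ± 0.44 (adjusted p = 0.00117). Sema5b ran from 0.0 to 19.7 CPM at P1 (median 7.79) and from 0.976 to 4.82 in adults (median 2.74), a change of -1.90 ± 0.48 (adjusted p = 0.00237). The lowest P1 library of both, far below the other 7, was again P1 female 4. Sema4c was the fourth to fall (-1.66 ± 0.58, adjusted p = 0.0274).

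Sema4d, a ligand of Plxnb1 known from oligodendrocytes, was the member of this class that rose. It ran from 3.31 to 9.14 CPM at P1 (median 5.49), peaked at P35 (4.58 to 29.0, median 20.3) and ran from 2.50 to 18.8 in adults (median 14.5). The change from P1 to adult was 1.19 ± 0.37 (adjusted p = 0.0140), and the ranges overlapped in the libraries of adult male 60 and adult female 4, which lay below the highest P1 library. Of the 7 secreted class 3 semaphorins, Sema3f alone was called, as a fall (13.4% of all genes fell). It ran from 0.0 to 7.87 CPM at P1 (median 3.69) and from 0.052 to 2.62 in adults (median 1.13), a change of -1.76 ± 0.66 (adjusted p = 0.0397). The levels of this class were low throughout, between 0.252 (Sema3g) and 5.15 CPM (Sema3a) as means over the 53 libraries.

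Plexins and neuropilins, the semaphorin receptors, had 2 of 11 members that fell and 1 that rose (13.4% and 14.6% of all genes). Plxna3 ran from 0.0 to 30.6 CPM at P1 (median 8.92) and from 0.951 to 5.82 in adults (median 2.40), a change of -1.98 ± 0.66 (adjusted p = 0.0210). Plxna1 ran from 7.90 to 173 CPM at P1 (median 30.9) and from 7.70 to 38.8 in adults (median 13.7), a change of -1.30 ± 0.48 (adjusted p = 0.0380). Its highest P1 library was P1 female 4, and without the 3 libraries of few genes Plxna1 was no longer called. Plxnb3, at chrX:73757090-73772514, is a plexin known from oligodendrocytes. It ran from 0.0 to 0.916 CPM at P1 (median 0.213), from 0.421 to 7.37 at P35 (median 4.02) and from 1.27 to 6.39 in adults (median 1.52). Every adult library was above every P1 library, and the change was 2.99 ± 0.89 (adjusted p = 0.00928). Nrp1 (-0.69 ± 0.38) and Nrp2 (-0.58 ± 0.46), the co-receptors of the secreted semaphorins, were not called.

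Both netrins and 1 of 6 netrin receptors fell, and no member of the class rose (13.4% and 14.6% of all genes). Ntn1 ran from 3.07 to 16.0 CPM at P1 (median 6.29) and from 0.139 to 4.56 in adults (median 1.13), a change of -2.22 ± 0.54 (adjusted p = 0.00152). Ntn4, a netrin of basement membranes, ran from 0.0 to 38.5 CPM at P1 (median 6.04) and from 1.77 to 6.33 in adults (median 3.49), a change of -1.86 ± 0.60 (adjusted p = 0.0167). Ntn4 was no longer called without P1 male 1 or without P1 female 1. Neo1, the receptor related to Dcc, ran from 10.5 to 135 CPM at P1 (median 25.9) and from 3.26 to 27.0 in adults (median 11.03), a change of -1.50 ± 0.45 (adjusted p = 0.00963) that was lost without P1 female 4 (adjusted p = 0.0550). Dcc itself was low, at 2.26 CPM at P1 and 1.54 in adults, and was not called (-0.55 ± 0.80).

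Of the 6 Slits and Robos 2 rose and none was called as a fall in the edgeR fit (14.6% and 13.4% of all genes). Robo3, the Robo that in commissural axons counters Slit repulsion, ran from 0.0 to 1.55 CPM at P1 (median 0.190), from 0.169 to 11.5 at P35 (median 7.61) and from 0.634 to 8.16 in adults (median 3.05). The change was 3.64 ± 0.98 (adjusted p = 0.00398), and only the highest P1 library, P1 female 3, reached into the adult range. Slit3, a secreted ligand, ran from 0.211 to 3.27 CPM at P1 (median 1.43) and from 1.09 to 19.7 in adults (median 3.84), a change of 1.84 ± 0.71 (adjusted p = 0.0468). The Slit receptors Robo1 (-1.45 ± 0.60, adjusted p = 0.0619) and Robo2 (-1.24 ± 0.56, adjusted p = 0.0929) missed the threshold, but these calls depend on the fit: DESeq2 called Robo1 as a fall, and so did edgeR without the 11 doubted libraries. Both antisense RNAs were near 0: Plxna4os1 averaged 0.035 CPM at P1 and 0.251 in adults, Plxna4os2 0.165 and 0.213, and neither was called. Each lies within Plxna4 on the other strand, and 24 members in all overlap another measured gene, among them Efnb2, Sema4c, Sema5b, Plxna1, Ntn4, Slit3 and Ephb1. Whether counting used the strand is not given in the sources used here, so reads of overlapping genes may not be told apart.

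**Figure D3:**
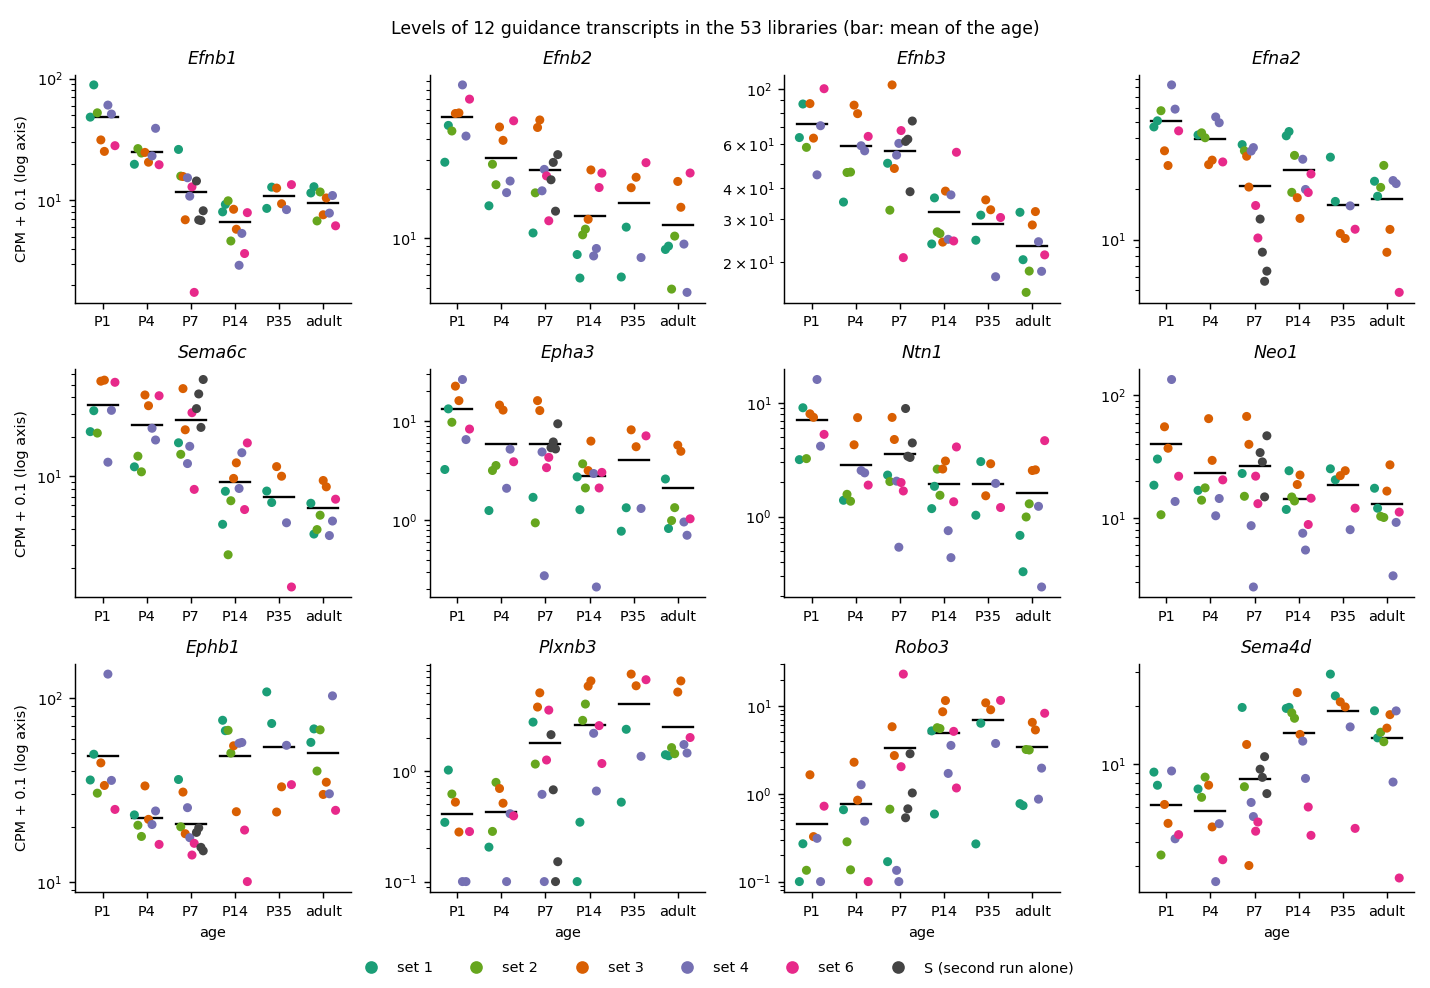
Level of 12 members (CPM + 0.1, log axis) against age in the 53 libraries; points are libraries coloured by replicate set and bars are the means of an age. The P1 and adult libraries of Efnb1, Efnb2, Efnb3, Sema6c and Plxnb3 do not overlap, Ephb1 is lowest at P4 and P7, and Robo3, Plxnb3 and Sema4d have their highest mean at P35.

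The calls rested unequally on single libraries. When each of the 53 libraries was left out in turn, 10 of the 17 falls and 3 of the 5 rises were kept in every fit: Sema5b, Sema6a, Sema6c, Efna2, Efna4, Efnb1, Efnb2, Efnb3, Epha3 and Ntn1, and Sema4d, Plxnb3 and Robo3. The number that rose dropped to 3 without P1 male 1, P1 male 4, adult female 3 or adult male 60. Slit3 was lost in 17 of the fits, Plxna1 in 11, Sema3f in 9, Epha10 in 5, Sema4c in 4, Plxna3, Ephb2 and Ntn4 in 2 each and Neo1 in 1. In an ordering without a test, P1 and adult libraries did not overlap for 5 members with lower adults (Sema6c, Efna4, Efnb1, Efnb2 and Efnb3; 2.69% of all genes) and for 1 with higher adults (Plxnb3; 3.58%).

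Within the replicate sets the direction was mostly the same. The calls came from these same libraries, so this is not independent support. Taking the mean log2(CPM + 0.5) of adults minus that of P1 inside each of sets 1, 2, 3, 4 and 6, with 1 or 2 libraries on each side (P1 female 4 is 1 of the 2 P1 libraries of set 4), 13 of the 17 falls were below 0 in 5 of 5 sets and the other 4 (Sema6a, Plxna1, Plxna3 and Ntn4) in 4 of 5. Efnb1 ran from -2.53 to -1.61 across the sets, Efnb3 from -2.20 to -1.29, Sema6c from -2.89 to -2.16 and Efna4 from -2.72 to -2.04. Of the rises, Plxnb3, Epha10 and Robo3 were above 0 in 5 of 5 sets, Sema4d in 4 (-0.66 in set 6) and Slit3 in 4 (-0.08 in set 1). Some members that were not called also kept 1 direction in 5 of 5 sets. Sema3c, Plxna4, Efna3, Robo1 and Robo2 were below 0, and Sema7a, Efna5 and Slit2 above 0. How many of all genes kept 1 direction across the sets was not counted. The set 6 difference is that of 1 P1 library, P1 female 6, and 1 adult library, adult male 60, whose labelled sex is in doubt.

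**Figure D4:**
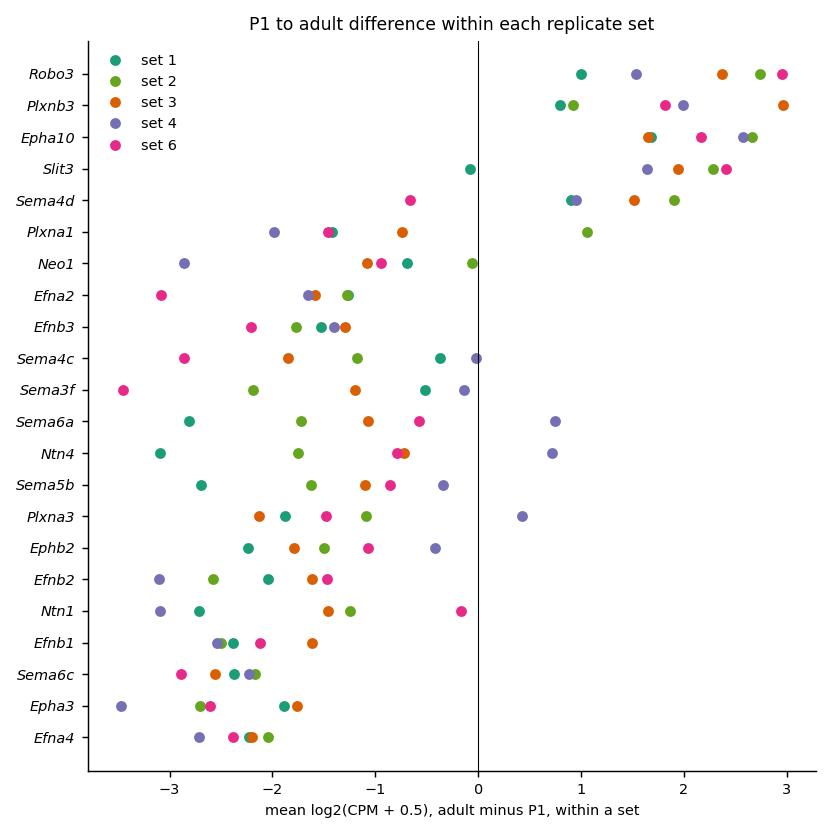
Difference between adult and P1 (mean log2(CPM + 0.5), horizontal axis) within each of the 5 replicate sets for the 22 members called from P1 to adult; each point is a set. Efnb1, Efnb3, Sema6c and Efna4 lie well below 0 in every set, while Sema6a, Plxna3 and Ntn4 are above 0 in set 4 and Plxna1 in set 2.

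Markers of other cell types moved over the same span, in which 14.6% of all genes rose and 13.4% fell. From P1 to adult 16 of 20 mature astrocyte markers rose and none fell, and their summed level ran from 1037 to 7461 CPM at P1 and from 5105 to 32572 in adults. All 15 oligodendrocyte and myelin markers rose, from 129 to 306 CPM in sum at P1 to 832 to 2573 in adults; among them Mobp went from 1.65 to 169 CPM. Of the 25 neuronal markers 11 rose and 5 fell, with sums of 2943 to 16301 CPM at P1 and 3943 to 18572 in adults. Among the 5 that fell were Dcx (666 to 14.4 CPM), Tubb3 (1612 to 248 CPM) and Neurod6 (349 to 55.9 CPM). The 11 that rose are not named here, and the median log2 change of the 25 was 0.82. Oligodendrocyte progenitor markers (3 of 11 rose, 1 fell), microglial markers (3 of 12 rose) and endothelial and mural markers (1 of 17 rose, 1 fell) were mostly not called. Each of the marker genes had counts at both ages, and the part of these cells in the changes of the members was not tested. The neuronal term used next averages all 25 markers, those that rose with those that fell. It therefore follows neither group alone and does not test the part of neurons in the falls.

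With the mean log2 level of the neuronal markers of each library as a further term, chosen after seeing the data, all 17 falls and 4 of the 5 rises (Slit3 was not) were called again. In all 26 members fell and 4 rose, against 18.8% and 20.6% of all genes. The 9 members that were called in addition, all as falls, were Efna3, Epha7, Epha8, Plxna4, Plxnd1, Robo1, Robo2, Sema3a and Sema3c. The estimates for the B-type ephrins were then -2.19 for Efnb1, -2.65 for Efnb2 and -1.73 for Efnb3. That of Epha3 was -3.32 and that of Ntn1 -2.83.

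Across the 6 ages 17 members differed (25.0%, against 24.9% of all genes). Of these, 15 were also called from P1 to adult, and 2 were not, Ephb1 and Sema4a, named here after their values were seen. Ephb1, a receptor of B-type ephrins, ran from 24.7 to 135 CPM at P1 (median 35.6), from 15.9 to 33.1 at P4 (median 21.1), from 13.9 to 35.9 at P7 (median 18.3), from 9.94 to 75.5 at P14 (median 55.7) and from 24.4 to 103 in adults (median 40.0). It was lowest at P4 and P7 with partial overlap of the libraries (adjusted p = 0.00268 over the ages). Sema4a was lowest at P4 (mean 7.57 ± 2.67 CPM, SD, n = 8) and highest at P35 (20.5 ± 7.30, n = 6; adjusted p = 0.0176). By age of the highest mean, 28 members peaked at P35, 24 at P1, 9 at P7, 4 at P14, 2 at P4 and 1 in adults. Peak ages were not counted over all genes, so these numbers cannot be called particular to the members. The sets are also unevenly spread, with 2 of the 6 P35 libraries in set 3 and 0 in set 2.

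No single step between neighbouring ages carried a called member. For P1 to P4 the count was 0 of 68 (0.0% of all genes; 5 members at unadjusted p under 0.05), for P4 to P7 0 (0.152%; 4 unadjusted), for P7 to P14 0 (0.0189%; 7 unadjusted), for P14 to P35 0 (0.0237%; 6 unadjusted) and for P35 to adult 0 (0.0%; 0 unadjusted). DESeq2 gave 0, 0, 1, 0 and 0 members for these steps. The smallest adjusted p of a member was that of Ephb1 from P7 to P14 (edgeR, 0.193, log2 change 1.20), followed by Efnb1 from P4 to P7 (0.227, -1.11). From P1 to P4 16 of 68 members had an estimate above 0, with a median of -0.34 (all genes: 0.04). For P4 to P7 these were 34 and -0.005 (all genes: 0.05), and for P7 to P14 23 and -0.33 (all genes: -0.04). Between P14 and P35 58 of 68 members had an estimate above 0, with a median of 0.54 (all genes: -0.01). From P35 to adult 6 of 68 had, with a median of -0.43 (all genes: -0.00083). Of the 6 P35 libraries 2 are of set 3, where many members were high as given below, and 0 are of set 2.

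The study also compared the sexes. No member was called as different between females and males over the 6 ages (edgeR: 0 of 68, 0 at unadjusted p under 0.05, against 0.0237% of all genes, and DESeq2: 0). The median difference, female minus male, was 0.09 log2 units. For no member was a difference between the sexes in the change with age called (edgeR: 0 of 68, 1 at unadjusted p under 0.05, against 0.0% of all genes, and DESeq2: 0). Since 11 libraries had labels or gene numbers in doubt, both were repeated without them, again with 0 members.

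The members were also compared between the replicate sets. In a fit of the 12 groups and the set, 59 of 68 members differed among the sets (86.8%, against 69.1% of all genes). Plxna4, Plxnd1, Epha7 and Efna2 had the smallest adjusted p. Plxna4, a plexin for class 3 and class 6 semaphorins, ran from 8.56 to 38.4 CPM in the 10 libraries of set 1 (median 12.2) and from 27.3 to 97.1 in the 12 of set 3 (median 53.2), and from 39.5 to 68.3 in the 4 of S (median 47.8). Plxnd1, a receptor of Sema3e, ran from 3.86 to 15.5 CPM in set 1 (median 5.97) and from 17.4 to 38.4 in set 3 (median 23.7), without overlap. Epha7 ran from 2.57 to 13.1 CPM in set 1 (median 7.26) and from 12.5 to 55.4 in set 3 (median 34.2), overlapping only at the edge. Efna2 went the other way, from 16.7 to 50.5 CPM in set 1 (median 38.8) to 8.31 to 33.5 in set 3 (median 19.0) and 5.56 to 13.1 in S (median 7.36).

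Of the sets compared with set 1, set 3 had the most calls. In it 40 members were higher and 8 lower, against 28.2% and 24.8% of all genes, with a median of 1.33 log2 units over the members. All 6 Slits and Robos, 10 of 13 Eph receptors and 6 of 11 plexins and neuropilins were higher. The 8 lower members were Efna2, Efna4, Efnb1, Ephb1, Ephb3, Ntn4, Sema6d and Plxnb1. In set 6, 9 were higher and 13 lower (17.2% and 17.1% of all genes), in S 12 and 3 (14.3% and 18.3%; DESeq2 called 30 members there in all), in set 4 1 and 8 (9.56% and 8.3%), and in set 2 none in either direction (0.0% and 0.0%; 2 members at unadjusted p under 0.05; DESeq2: 0). Ntn4 was lower in sets 3, 4, 6 and S, and Efnb3 was called in none of the contrasts with set 1. The S libraries are all P7 and were sequenced only in the second run. For S, a difference of set and a difference of run therefore cannot be told apart.

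**Figure D5:**
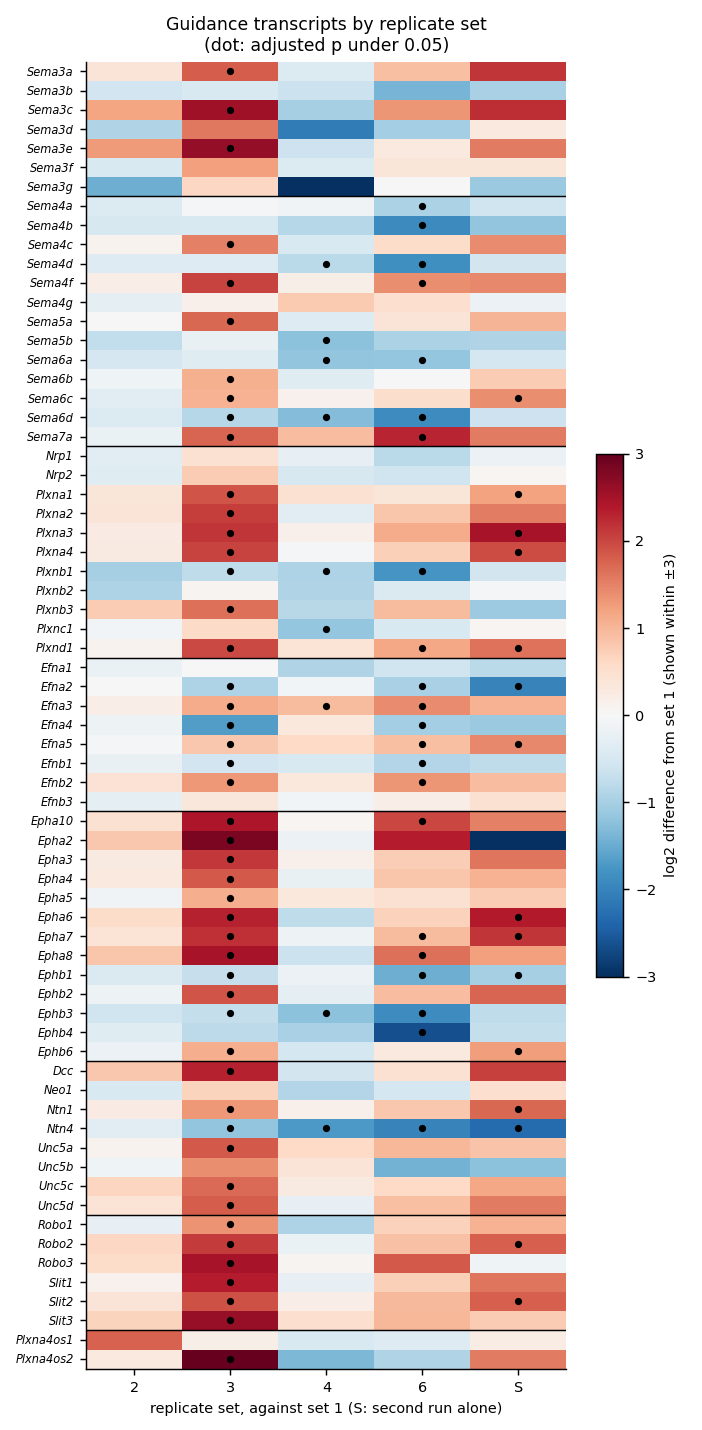
Log2 difference of each member from set 1 (colour, shown within ±3) in replicate sets 2, 3, 4 and 6 and in the S libraries; a dot marks an adjusted p under 0.05 and lines part the classes in the order of the plot of changes from P1 to adult. Red, higher than set 1, fills most of the column of set 3, where 40 members are called higher and 8 lower.

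Cell type markers moved with the sets. Against set 1 all 25 neuronal markers were higher in set 3, 24 in set 6, 21 in S and 13 in set 4, while of the 20 mature astrocyte markers 20, 20, 18 and 10 were lower. The neuronal sum ran from 2577 to 5130 CPM in set 1 and from 7003 to 14316 in set 3; the astrocyte sum ran from 5507 to 29341 CPM and from 1374 to 15899. With the neuronal marker level as a further term, 35 of the 68 members differed among the sets (40.5% of all genes). Against set 1 no member was then called by edgeR in set 2 (0.0% of all genes; 3 members at unadjusted p under 0.05), set 3 (0.0%; 4), set 6 (0.0%; 11) or S (0.284%; 6), and 4 were in set 4 (10.5%), namely Sema6b, Ephb6, Neo1 and Robo1. DESeq2 was not run with this term. Because the marker level and the sets move together, the 2 cannot be told apart in that fit.

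Other genes of the guidance pathways were read from 2 lists, chosen with earlier results of these data known. Of 53 cytosolic partners of the receptors, 15 fell and 9 rose from P1 to adult (13.4% and 14.6% of all genes). Their median log2 change was -0.23. The 3 falls with the smallest adjusted p were collapsin response mediator proteins, which act below semaphorin receptors: Dpysl5 (529 to 12.5 CPM, -5.43 ± 0.69), Dpysl3 (1675 to 46.1 CPM, -5.18 ± 0.67) and Crmp1 (1625 to 121 CPM, -3.74 ± 0.57). The 3 rises were Ngef, an exchange factor bound to Epha4 (90.9 to 421 CPM, 2.25 ± 0.22), Chn1, a Rac-inactivating protein below Eph receptors (127 to 645 CPM, 2.32 ± 0.32), and Mical2, an enzyme that oxidises actin (25.3 to 142 CPM, 2.66 ± 0.48). The adjusted p of these 6 lay between 1.24e-10 and 3.26e-05.

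Of 35 other cues, co-receptors and adhesion partners, 7 rose and 5 fell (14.6% and 13.4% of all genes), with a median of -0.12. Omg, a myelin-associated ligand, went from 3.61 to 57.2 CPM (3.99 ± 0.47, adjusted p = 1.26e-08) and Flrt1, an adhesion ligand, from 7.25 to 24.5 CPM (1.75 ± 0.36, adjusted p = 0.000248). Ntn5 had no count in any P1 library and 0.359 CPM in adults. Draxin, a repellent that binds Dcc, went from 7.38 to 0.248 CPM (-4.87 ± 1.05, adjusted p = 0.000421), Islr2 from 16.7 to 2.93 CPM (-2.49 ± 0.51, adjusted p = 0.000201) and Cxcr4, a chemokine receptor, from 1.72 to 0.222 CPM (-2.84 ± 0.86, adjusted p = 0.0106).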

How the data were processed

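Ribosome-bound RNA was sequenced from the cortex of 57 samples, which form 53 libraries because 4 animals sequenced in 2 runs share a column. The deposited values are raw counts per gene, made by the authors with CASAVA, HISAT2, SAMtools and featureCounts on GRCm38.p5, per the submitters' processing notes. Neither the annotation, nor the strand setting, nor any filter on genes is given in the sources used here. Total counts of 14768178 to 48541139 per library limit the precision for low genes. Every column belonged to a sample (0 did not), and of 100 pairs of libraries within a group none agreed within sampling noise (lowest chi-square per degree of freedom 30.3).

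Counts of all 21118 genes were fitted with edgeR 4.0.16 (R 4.3.3; TMM, robust quasi-likelihood) with 12 groups of sex and age and a term for the P7 libraries of the second run alone. Age contrasts are means of both sexes. The fit for the sets replaced the run term by the set. Calls have a Benjamini-Hochberg adjusted p under 0.05 over all genes. Levels are CPM scaled by TMM library sizes. P-values measure the spread between these samples. The scripts were tested on simulated data. Of 100 genes given a P1 to adult change of 1 log2 unit 6 were called, and of 100 given 2 units 76. For set 3 against set 1 these were 7 and 76 of 100. Most changes of 1 log2 unit would thus be missed, and a member not called need not be unchanged. Tables and figures used Python 3.11.15, pandas 2.3.3 and matplotlib 3.10.9. Positions and exon lengths are from GENCODE M21, where 68 of 68 identifiers matched. Promoters are from RefSeq (GRCm38.p6).

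The members and gene lists were chosen with earlier results of these data known. Within each of 7 classes the text names up to 3 members that rose and 3 that fell by the smallest adjusted p, and for the sets the 4 smallest. Of each other list it names up to 3 in each direction. Further members were named to complete a count, after their values were seen. Alternatives were RLE scaling, DESeq2 1.42.0, a filter (at least 1 CPM in 3 libraries), other terms for run and set, a neuronal marker term, and leaving out doubted libraries, the second run or each library in turn.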

Additional observations from a re-analysis of the deposited data

Results flagged for a closer look

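For 25 members (23 named for a change with age or between sets, and both antisense RNAs, which were not called with age), the libraries of each age were examined for one standing apart, where an age had 4 to 10 libraries (so not P7). A library was singled out when its gap to the nearest other library, as a share of the whole range, passed Dixon's 95% critical value. That was so in 17 of 125 groups. The rate of about 1 in 20 holds for normally distributed values in independent groups. These were CPM of 25 genes in the same libraries, so the 17 cannot be set against that rate. In 10 of the 17 the library belonged to replicate set 3, which has 2 libraries at each age. The antisense RNAs, which are near 0, supplied 5 of the 17 and 4 of the 10.

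The library of P1 female 4, with few genes detected, stood above the other P1 libraries for Neo1 (135 CPM, next 55.3), Plxna1 (173 CPM, next 70.2) and Ntn1 (16.0 CPM, next 8.99). Set 3 libraries stood apart for Neo1 in P4 female 3 (64.5 CPM, next 29.3), Plxna3 in P4 female 3 (28.6, next 13.9), Plxna1 in P14 male 3 (42.8, next 26.9), Plxna4 in P14 male 3 (47.9, next 27.3), Robo3 in P1 female 3 (1.55, next 0.622) and Slit3 in adult male 3 (19.7, next 7.18). The antisense RNA Plxna4os2 was highest in a set 3 library at 4 ages: P1 female 3 (0.843 CPM, next 0.360), P4 female 3 (0.630, next 0.194), P14 male 3 (1.08, next 0.206) and P35 male 3 (0.463, next 0.0419). Plxna4os1 stood apart in P14 female 1 (1.03 CPM, next 0.505).

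Among the ephrins Efna2 was high in P35 male 1 (30.7 CPM, next 16.7), Efnb1 in P4 male 4 (38.9, next 26.5) and Efnb3 in P14 male 6 (55.5, next 38.7).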

How the results depend on the processing

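The count of 22 members called from P1 to adult lay between 20 and 24 under RLE scaling, DESeq2, the filter on low counts, no run term and the sets of libraries left out. Leaving out each of the 53 libraries gave 17 to 23 (12 to 18 that fell and 3 to 5 that rose), 15 to 20 members for the 6 ages (main 17) and 56 to 63 for the sets (main 59). It gave 0 for P1 to P4, P14 to P35, P35 to adult, sex and sex by age, 0 to 1 for P4 to P7 (1 without P7 male 2) and 0 to 1 for P7 to P14 (1 without P14 male 6). P7 to P14 gave 1 member with DESeq2 and 4 without the run term. With the neuronal marker term, chosen after seeing the data, 26 members fell, 30 differed among the ages and 35 among the sets. For S against set 1 DESeq2 called 30 members and edgeR 15. The cause of these differences was not tested. No named member's change from P1 to adult was reversed under any of these refits, although some were within single sets, as given above.

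With the set as a replicate block, 28 members were called from P1 to adult (41.2%, against 41.3% of all genes), 30 among the ages (44.1%, against 43.5%), 1 from P4 to P7 (Efnb1) and 2 from P7 to P14. By direction from P1 to adult, 22 of the 68 members fell, against 4124 of the 21118 genes, and 6 members rose, against 4594 genes. The 6 gained from P1 to adult were Efna3, Plxna4, Robo1, Robo2, Sema3c and Sema7a (Robo1 adjusted p = 0.0178, Robo2 0.000711), and 0 were lost. The median change of the members from P14 to P35 was 0.34 with the block, against 0.54. Same-numbered libraries of other groups correlated by a median of 0.548 in their deviations from group means (13326 genes; over 0.1 in 208 of 219 pairs, lowest -0.126), against -0.148 between numbers. This is a hint from the data that a number is shared, not the design. No block could be added for the sets themselves. The filter left out both antisense RNAs, and depth limits members near 0 such as these.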
